A study of Homo sapiens with 21 samples.

Results

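Mitochondria are cleared through mitophagy. Here 9 genes of this process and of general autophagy were followed by symbol through 19 of the 21 RNA-seq libraries of the series. BNIP3, BNIP3L and FUNDC1 encode receptors on the outer mitochondrial membrane that are linked to low oxygen. PINK1 is the kinase that starts the ubiquitin-dependent route. SQSTM1, MAP1LC3B, GABARAPL1, ULK1 and WIPI1 are grouped here as general genes, whose role is not limited to mitochondria as cargo. The members were chosen by name and function, with earlier results of these data known. They are 9 genes of the 20970 found in at least 1 of the 4 expression tables, and all 9 were present in each table. The study compared normoxia (18% O2) with hypoxia (1% O2 for 18 h) in FADU, a line from a human squamous carcinoma of the head and neck, and in BFTC909, a line from a human carcinoma of the renal pelvis (written BFTC-909 in the labels). In each line there were 2 Scramble-si libraries in normoxia, 2 Scramble-si libraries in hypoxia and 2 libraries labelled METTL4-si in hypoxia, METTL4 being a methyltransferase that has been linked to N6-methyladenine in DNA. FADU cells in normoxia with a control plasmid (2 libraries) or with stable overexpression of METTL4 (METTL4-OE, 2 libraries) were measured together, and a last set held FADU cells in hypoxia: a CRISPR control (1 library) and 2 clones (1 library each) whose METTL4 carries, after prime editing, a changed catalytic motif. Each mutant clone grew from a single cell, so a clone's own history and the mutation cannot be told apart. The samples include no normoxic library of the clones or of the CRISPR control. The other 2 libraries, of FADU cells with RP11-390F4.3 overexpression, were not analysed, since no column matched the labels.

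In selective autophagy a receptor on the cargo binds LC3 or GABARAP proteins, which are anchored in the growing autophagosome membrane, and the closed vesicle is delivered to the lysosome. BNIP3 and BNIP3L are known targets of hypoxia-inducible factors (HIF), whereas FUNDC1 is known mainly for control by phosphorylation of its protein. ULK1 starts autophagosome formation, WIPI1 binds the lipid PI3P on the forming membrane, MAP1LC3B and GABARAPL1 encode membrane-anchored ubiquitin-like proteins, and SQSTM1 (p62) carries ubiquitinated cargo and is itself degraded with it. The values are transcript levels, and none of them measures the flux of mitochondria through autophagy.

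Values are TMM-normalized CPM (counts scaled to a common library size), and depth in megareads (M) on genes per library was 21.2 to 24.9 M in FADU, 19.0 to 24.1 M in BFTC909 and 20.3 to 22.0 M in the overexpression libraries. A gene was called when limma gave an adjusted p under 0.05 and the change was at least 1.3-fold, and log2 fold changes are on the log2(value + 1) scale, with the standard error (SE). Each group had n = 2 libraries, and since nothing says that they came from separate cultures, the p-values measure the spread between these libraries alone. All 10 epithelial markers were present in FADU, with summed values of 4021 to 7702. BFTC909 held 4 of the 10, which summed to 21.5 to 84.7 in 5 of its 6 libraries. It held 7 of the 8 fibroblast markers. These summed to 1324 and 1427 in normoxia, 4915 and 5132 in hypoxia, and 3209 and 3308 in METTL4-si. Of the 10 breast markers it held 3, with 2 at a value of at least 1 in each normoxia and hypoxia library. Those held summed to 425 and 442 in normoxia, 1177 and 1207 in hypoxia, and 431 and 610 in METTL4-si. In FADU and BFTC909, 3 libraries stood out from their group partner in a marker list. They are grouped below under the name libraries with transcripts of other cell types. This is a name and not a finding, since that origin was not tested. The breast marker list summed to 845 in FADU METTL4-si replicate 1 against 117 in replicate 2, and to 239 against 112 in normoxia replicates 1 and 2, with the hypoxia libraries at 75.5 and 81.0. In FADU METTL4-si replicate 1 and normoxia replicate 1, 8 of the 8 breast markers in the table reached a value of 1, against 4 of 8 in the other 4 libraries, where TFF1 was at 0. In BFTC909 METTL4-si replicate 2 the epithelial markers summed to 1122, against 32.0 in replicate 1. The line is itself from a carcinoma, and whether these transcripts came from another cell type was not tested. Members whose call turns on these 3 libraries are given with and without them, where the FADU side without them rests on 1 pair of libraries and its calls lean on the spread shared across genes. Leaving all 3 out gave BNIP3 a log2 fold change of 3.48 in FADU hypoxia, -3.85 in FADU METTL4-si and -1.54 in BFTC909 METTL4-si, and BNIP3L 2.39, -2.63 and -1.06, so the values of these receptors were nearly as large without them.

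METTL4 itself was measured first as a check of the labels. In FADU its value was 31.9 and 30.8 in normoxia, 26.6 and 25.3 in hypoxia, and 24.2 and 27.1 in the libraries labelled METTL4-si, so hypoxia and METTL4-si overlapped (log2 fold change -0.02, SE 0.0881, adjusted p = 0.900 by limma). In BFTC909 it was 19.0 and 15.6 in hypoxia and 14.4 and 12.2 in the libraries labelled METTL4-si, which did not overlap but missed the threshold (log2 fold change -0.36, SE 0.129, adjusted p = 0.0717). The METTL4 transcript in the FADU libraries thus goes against the label, every direction drawn from them rests on that label, and both groups are called by it throughout. In METTL4-OE cells METTL4 rose from 35.4 and 32.7 to 158 and 139 (4.34-fold, adjusted p = 1.56e-09). In the mutant table it was 12.5 in the control, 15.9 in clone 1 and 10.6 in clone 2, where an edited transcript is counted like any other and the level checks nothing.

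The regions just upstream of 7 members were searched in the RefSeq promoter set (build GRCh38.p14, 250 bases before the start site). BNIP3L and PINK1 were not searched. Of the 7, 4 are shown, and of these BNIP3 and MAP1LC3B held the most matches among the 7. The others shown are FUNDC1, which was called in none of the comparisons, and GABARAPL1, which rose in FADU hypoxia and fell with METTL4 overexpression. Capitals mark ACGTG or GCGTG, the core of the HIF response element, on the printed strand or as its reverse complement. Each sequence is printed 5' to 3' on the strand of the gene: BNIP3 on the minus strand at chr10:131981924-131982173, FUNDC1 on the minus strand at chrX:44542860-44543109, MAP1LC3B on the plus strand at chr16:87392086-87392335 and GABARAPL1 on the plus strand at chr12:10212627-10212876.
BNIP3: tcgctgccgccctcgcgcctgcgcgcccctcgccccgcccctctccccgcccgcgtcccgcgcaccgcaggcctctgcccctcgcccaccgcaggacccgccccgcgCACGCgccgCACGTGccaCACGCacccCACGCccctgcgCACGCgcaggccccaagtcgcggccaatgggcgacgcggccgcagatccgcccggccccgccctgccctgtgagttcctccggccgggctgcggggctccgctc
FUNDC1: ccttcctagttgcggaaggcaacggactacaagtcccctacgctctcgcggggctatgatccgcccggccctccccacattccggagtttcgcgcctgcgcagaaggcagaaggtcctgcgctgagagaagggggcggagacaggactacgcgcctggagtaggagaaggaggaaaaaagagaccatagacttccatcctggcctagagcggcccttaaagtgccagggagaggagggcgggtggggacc
MAP1LC3B: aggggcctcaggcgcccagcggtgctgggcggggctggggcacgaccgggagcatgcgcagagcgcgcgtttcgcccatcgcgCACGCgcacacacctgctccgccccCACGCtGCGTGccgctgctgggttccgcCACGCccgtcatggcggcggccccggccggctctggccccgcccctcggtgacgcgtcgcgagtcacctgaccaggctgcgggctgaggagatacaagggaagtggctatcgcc
GABARAPL1: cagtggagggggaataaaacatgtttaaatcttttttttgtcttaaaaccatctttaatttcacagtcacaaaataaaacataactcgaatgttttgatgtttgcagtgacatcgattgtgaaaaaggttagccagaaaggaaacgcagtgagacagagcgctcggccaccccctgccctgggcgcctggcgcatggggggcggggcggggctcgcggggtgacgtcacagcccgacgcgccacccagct
The BNIP3 window held 2 ACGTG and 4 GCGTG matches, counted on both strands, all between 104 and 143 bases before the start. Both ACGTG matches are the palindrome CACGTG read from either strand. The MAP1LC3B window held 4 GCGTG matches and the ULK1 window 1, and these letters were not in the windows of FUNDC1, GABARAPL1, WIPI1 and SQSTM1 (3 windows). Of 35116 RefSeq windows of this length, 43.2% held ACGTG or GCGTG, 18.5% held ACGTG and 6.34% held CACGTG, so a match is common and describes the window only.

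Length-scaled levels placed the members in a different order in the 2 lines. Per kb of exons, SQSTM1 had the highest level of the 9 in FADU normoxia (25.8 ± 0.514 CPM per kb, SD, n = 2), followed by BNIP3L (9.0 ± 0.747) and FUNDC1 (7.54 ± 1.5), whose libraries overlapped. BNIP3 was lower there, at 3.68 ± 0.173 CPM per kb. In FADU hypoxia BNIP3L (50.9 ± 3.86) and BNIP3 (44.9 ± 2.21) were above SQSTM1 (30 ± 1.51), without overlap between neighbours. This order depends on the length used, that of all annotated exons of a gene joined (7535 bases for SQSTM1, 4149 for BNIP3L and 4050 for BNIP3). Before division by length SQSTM1 had the higher mean there, 226 against 211 for BNIP3L and 182 for BNIP3. Below ULK1 (8.18 ± 0.599), GABARAPL1, MAP1LC3B and FUNDC1 followed at 6.27, 6.07 and 5.90 CPM per kb, and these neighbours overlapped. In BFTC909 normoxia the order was SQSTM1 (127 ± 1.03), MAP1LC3B (34.1 ± 0.173), BNIP3L (26.1 ± 1.12) and BNIP3 (24.1 ± 0.144), and in hypoxia SQSTM1 (112 ± 4.17) stayed above BNIP3L (97.0 ± 3.91) and BNIP3 (86.4 ± 1.29). WIPI1 was the lowest in FADU, at 0.551 ± 0.222 CPM per kb in normoxia, and GABARAPL1 in BFTC909, at 1.71 ± 0.199. The tables were scaled separately, so a level in one line is not set against the other by a test.

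**Figure D1:**
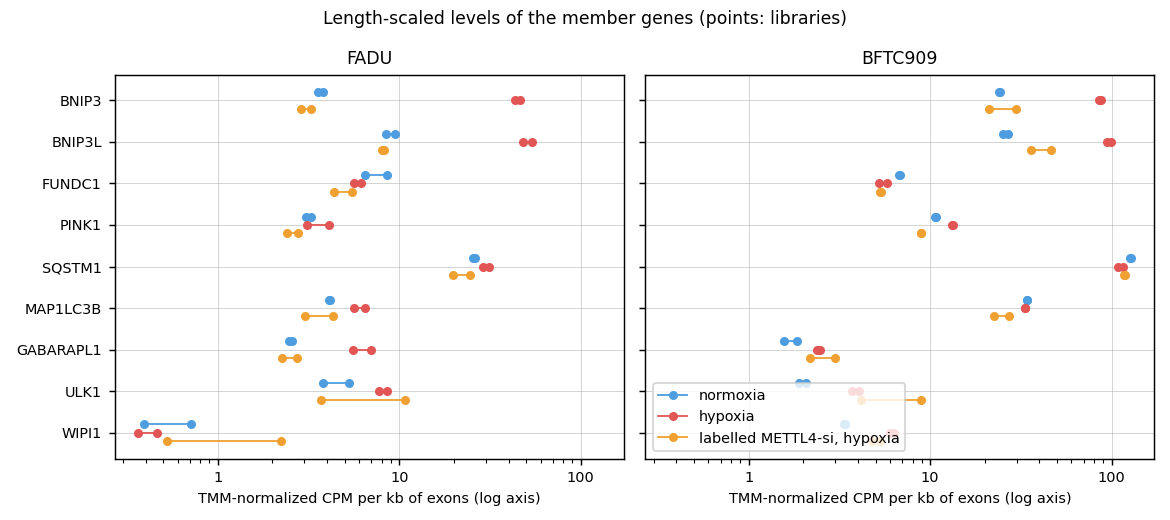
TMM-normalized CPM per kb of exons (log axis) of the 9 genes in FADU (left) and BFTC909 (right), with a point for each library and a line joining the libraries of a group. BNIP3 and BNIP3L in hypoxia (red) lie to the right of their normoxia and METTL4-si points in both lines, while the FUNDC1 points stay between 4 and 9.

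Hypoxia raised 2 of the 3 receptors in FADU. BNIP3 (chr10:133781188-133795471, minus strand, GRCh37) had values of 14.4 and 15.4 in normoxia and 188 and 175 in hypoxia. Both hypoxic libraries were above both normoxic ones by a margin far larger than the spread (12.2-fold, log2 fold change 3.52, SE 0.0912, adjusted p = 2.00e-05 by limma). BNIP3L, on chromosome 8, went from 35.2 and 39.5 to 200 and 223 (5.66-fold, log2 fold change 2.47, SE 0.0881, adjusted p = 3.81e-05). FUNDC1 (chrX:44382885-44402105, minus strand) had 8.14 and 10.8 in normoxia and 7.77 and 7.07 in hypoxia, which was not called (log2 fold change -0.30, 95% interval -0.71 to 0.10, adjusted p = 0.229). Without normoxia replicate 1 and METTL4-si replicate 1 FUNDC1 was called lower, with a log2 fold change of -0.49.

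Of the other members in FADU, only GABARAPL1 was called. GABARAPL1 (chr12:10365057-10375727, plus strand), a GABARAP-family gene, went from 10.4 and 10.1 to 22.5 and 28.3, without overlap (2.48-fold, log2 fold change 1.22, SE 0.142, adjusted p = 0.00243). MAP1LC3B (chr16:87417559-87438385, plus strand), which encodes LC3B, was 20.8 and 20.8 in normoxia and 28.5 and 32.7 in hypoxia, 1.47-fold apart with an adjusted p of 0.0553 by limma, so this non-overlapping pair just missed the threshold. ULK1 (chr12:132379167-132407695, plus strand) was 40.2 and 28.9 in normoxia and 59.1 and 65.6 in hypoxia (log2 fold change 0.85, SE 0.434, adjusted p = 0.198). The ULK1 groups did not overlap either, and the libraries labelled METTL4-si, which share the estimate of the spread, stood at 81.7 and 28.4. Without METTL4-si replicate 1, or without replicate 2, MAP1LC3B (0.53 on the log2 scale) and ULK1 (0.85) were called higher too, which gave 5 members in place of 3, and without normoxia replicate 1 and METTL4-si replicate 1 they were also called (0.53 and 1.08). PINK1 (chr1:20959951-20978004, plus strand) had 14.8 and 15.9 against 15.1 and 19.7, which overlapped. SQSTM1 (chr5:179233398-179265078, plus strand) had 197 and 192 against 218 and 234 (log2 fold change 0.21, adjusted p = 0.183). WIPI1 (chr17:66417089-66453654, minus strand) was close to the floor of the filter at 2.41 and 1.34 in normoxia and 1.57 and 1.23 in hypoxia. In all, 3 of the 9 members were called higher and 0 lower, against 9.73% higher and 9.65% lower (19.4% in all) of the 16324 genes tested, and the members' median log2 fold change was 0.53 against -0.03 for all genes. By an unadjusted p under 0.05 with the same fold 4 members were higher and 0 lower, and edgeR and DESeq2 on recovered reads also gave 4 and 0, the 4th being MAP1LC3B.

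**Figure D2:**
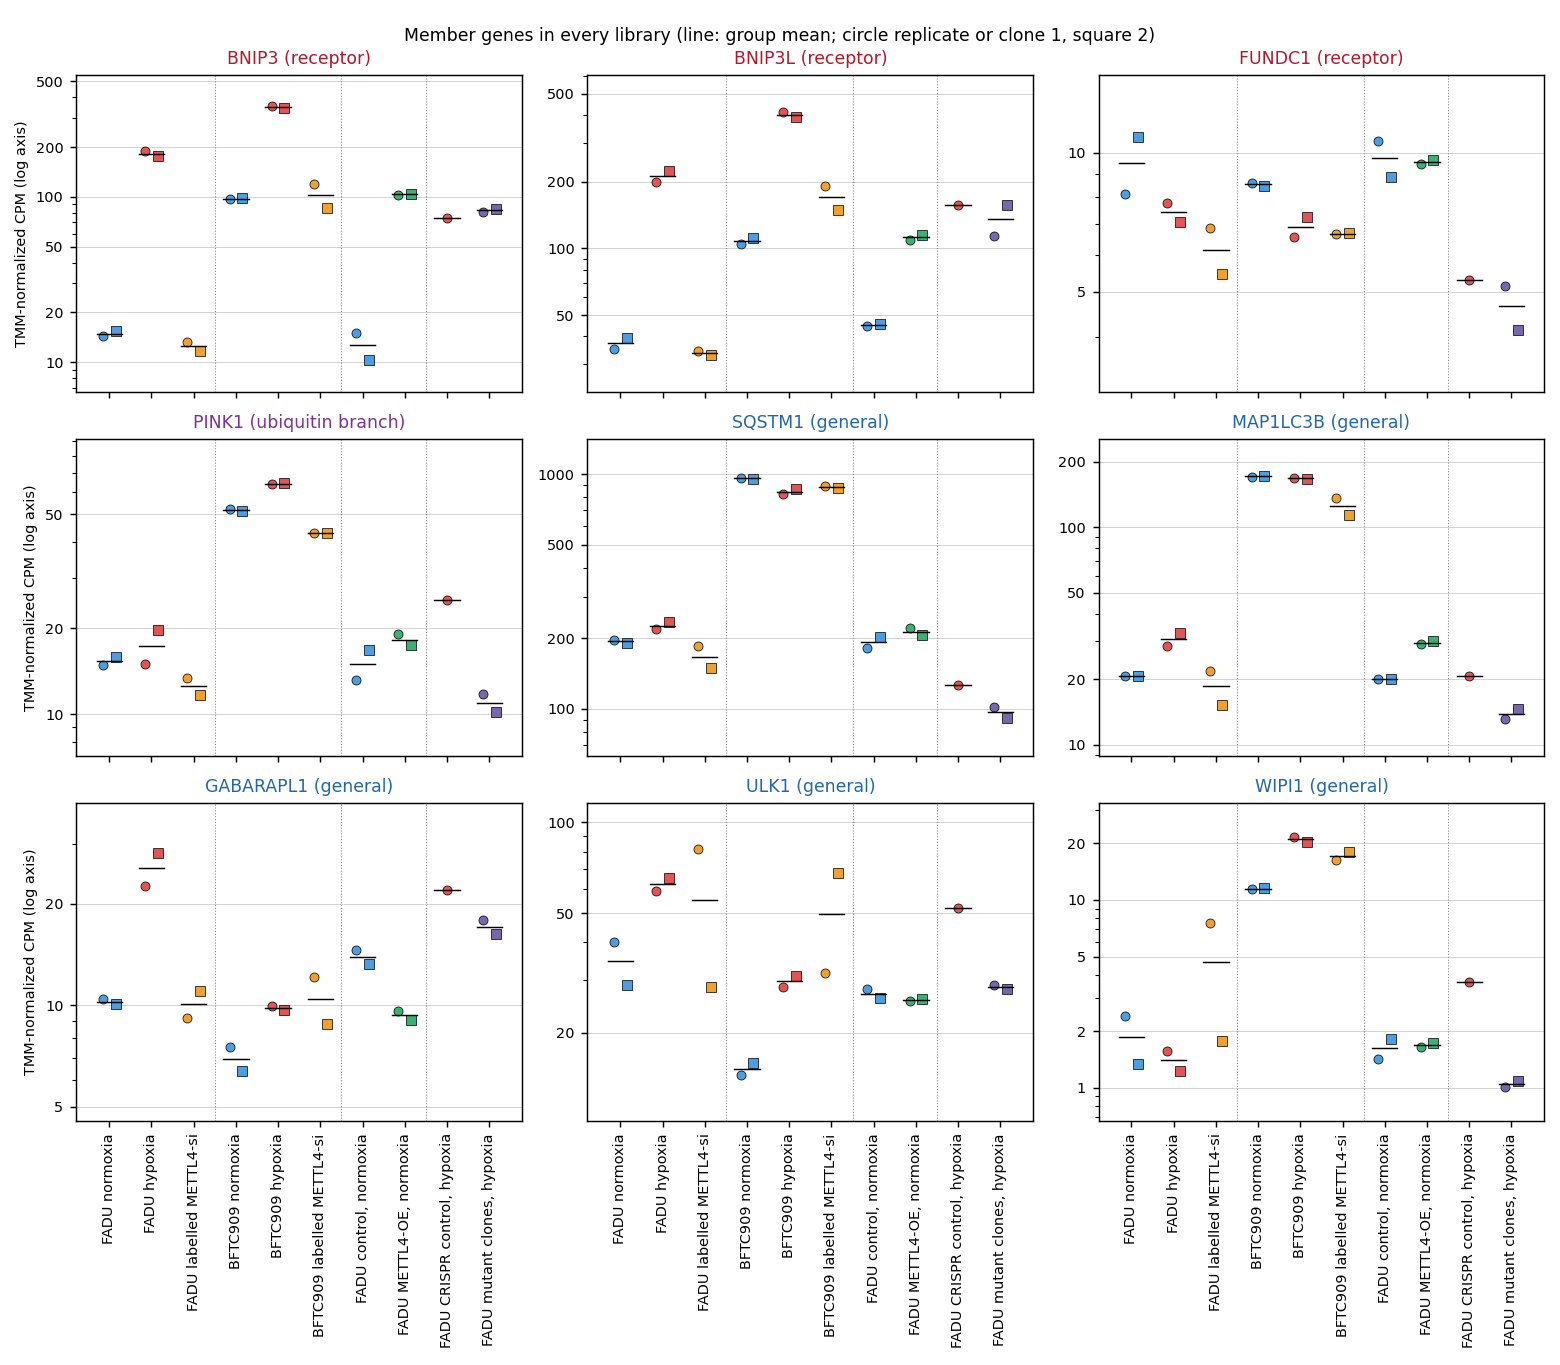
TMM-normalized CPM (log axis) of each member in the 19 libraries used, with a circle for replicate or clone 1, a square for replicate or clone 2 and a line at the group mean. The BNIP3 panel shows hypoxia and METTL4-OE far above the normoxic controls of FADU, and the ULK1 and WIPI1 panels show the wide gap between the FADU libraries labelled METTL4-si.

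The same 2 receptors rose in BFTC909 hypoxia. BNIP3 was 97.2 and 98.0 in normoxia and 353 and 346 in hypoxia (3.58-fold, log2 fold change 1.83, SE 0.139, adjusted p = 1.01e-04 by limma). BNIP3L was 105 and 111 in normoxia and 414 and 391 in hypoxia (3.72-fold, log2 fold change 1.89, adjusted p = 3.95e-05). Neither receptor overlapped between the groups. FUNDC1 was again not called, at 8.59 and 8.47 against 6.55 and 7.26 (log2 fold change -0.27, 95% interval -0.53 to -0.01, adjusted p = 0.0815).

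Different general genes passed in this line. WIPI1, the PI3P-binding gene, rose from 11.5 and 11.5 to 21.6 and 20.4 (1.83-fold, adjusted p = 5.97e-04 by limma). ULK1, the initiating kinase, rose from 14.5 and 15.9 to 28.3 and 30.9 (1.95-fold, adjusted p = 0.0377), and leaving out any 1 of the 4 libraries compared ended that call (0.86 to 0.98 on the log2 scale). GABARAPL1 was 7.52 and 6.38 against 9.97 and 9.65, which did not overlap and missed the threshold (1.41-fold, adjusted p = 0.0523), though it was called without either METTL4-si library (0.45 on the log2 scale in both fits). PINK1, at 52.1 and 51.4 against 63.8 and 64.4, had an adjusted p of 0.00785 by limma but a difference of 1.24-fold, under the limit. SQSTM1, at 966 and 955 against 821 and 865, was 1.14-fold lower (adjusted p = 0.0467), also under the limit. MAP1LC3B had 171 and 172 against 168 and 167, a log2 fold change of -0.03 with a 95% interval of -0.24 to 0.18. Thus 4 of 9 members were called higher and 0 lower by limma, where 17.9% and 18.3% of 14869 genes were (36.2% in all), and the members' median was 0.45 against -0.02.

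The hypoxia response differed between the lines for 4 members, with the lower log2 fold change in BFTC909 for each. The difference of the log2 fold changes (BFTC909 minus FADU), tested in 1 limma fit of 12 libraries, was -1.69 for BNIP3 (SE 0.184, adjusted p = 2.71e-04), -0.58 for BNIP3L (adjusted p = 0.0221), -0.78 for GABARAPL1 (adjusted p = 0.0316) and -0.40 for SQSTM1 (adjusted p = 0.0407), and 12.8% of 13595 genes were called lower and 11.0% higher in this test (23.8% in all). Of these, the BNIP3 difference alone was called with each library left out in turn. The BNIP3L difference was lost without 6 of the 12 libraries (-0.50 to -0.63 in those fits), that of GABARAPL1 without 7 and that of SQSTM1 without any 1 of the 8 libraries of the hypoxia comparison. For WIPI1, called in BFTC909 and not in FADU, the difference was 1.05 (95% interval -0.21 to 2.31, adjusted p = 0.200), and for ULK1 it was 0.07 (interval -1.30 to 1.44), so neither was shown to differ with all libraries. Without the 3 libraries the WIPI1 difference was called (0.78), that of ULK1 was -0.16, not called, and MAP1LC3B (-0.57) was called lower. For FUNDC1 it was 0.03 (interval -0.42 to 0.48).

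**Figure D3:**
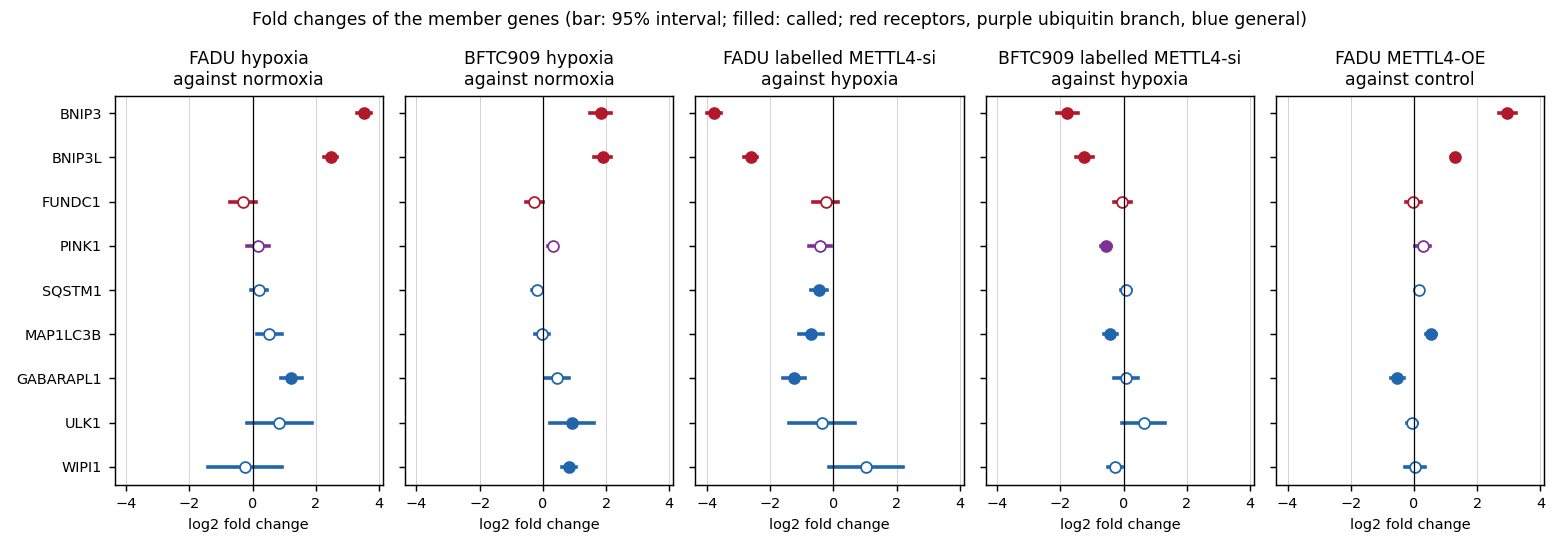
Log2 fold changes of the 9 genes in 5 comparisons, with 95% intervals from limma, filled where called and coloured by role (receptors red, ubiquitin branch purple, general genes blue). BNIP3 and BNIP3L are filled in all 5 panels, FUNDC1 in none.

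In FADU libraries labelled METTL4-si and kept in hypoxia, BNIP3 and BNIP3L stood near their normoxic values. These libraries are compared with the same 2 hypoxia libraries that enter the hypoxia comparison, so the directions of both comparisons are not independent. BNIP3 had 13.2 and 11.7 against 188 and 175 in hypoxia (14.6-fold lower, log2 fold change -3.76, adjusted p = 1.74e-05 by limma). BNIP3L had 34.3 and 33.2 against 200 and 223 (6.26-fold lower, adjusted p = 3.33e-05). GABARAPL1 fell to 9.17 and 11.0 (2.51-fold lower, adjusted p = 0.00138), MAP1LC3B to 21.8 and 15.3 (1.65-fold lower, adjusted p = 0.0165) and SQSTM1 to 185 and 149 (1.35-fold lower, adjusted p = 0.0193). Leaving out either hypoxia library ended the MAP1LC3B and SQSTM1 calls, and leaving out METTL4-si replicate 2 ended that of SQSTM1 (-0.29 on the log2 scale, against -0.44). PINK1 had 13.4 and 11.7 (log2 fold change -0.43, adjusted p = 0.0594) and FUNDC1 6.86 and 5.47 (log2 fold change -0.24, adjusted p = 0.310).

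ULK1 and WIPI1 could not be placed in these libraries, because the 2 replicates were far apart. ULK1 was 81.7 in METTL4-si replicate 1 and 28.4 in replicate 2, on either side of the hypoxia values of 59.1 and 65.6. WIPI1 was 7.58 and 1.78, above the hypoxia values of 1.57 and 1.23 in both. Replicate 1 is the library in which breast markers summed to 845 and fibroblast markers to 124, against 117 and 15.7 in replicate 2, and the part of those transcripts in the ULK1 and WIPI1 values was not tested. Without METTL4-si replicate 1 and normoxia replicate 1 the log2 fold change of ULK1 was -1.11 and that of WIPI1 0.21, against -0.36 and 1.03 with all libraries. Altogether 5 of 9 members were called lower and 0 higher, where 15.3% of genes were called lower and 12.5% higher (27.8% in all), and 7 were lower without METTL4-si replicate 1, PINK1 (-0.53) and ULK1 (-1.11) being added. Against normoxia directly, the METTL4-si libraries had 0 members called in either direction by limma, where 8.13% and 13.5% of genes were called higher and lower (21.6% in all). By unadjusted p and the same fold 1 member, FUNDC1 (-0.54), was lower, and edgeR and DESeq2 called 0. Without METTL4-si replicate 1 the count was 3 lower, FUNDC1 (-0.68), SQSTM1 (-0.38) and MAP1LC3B (-0.42), without this library and normoxia replicate 1 it was 3 lower, FUNDC1 (-0.87), PINK1 (-0.41) and MAP1LC3B (-0.42), and without replicate 2 it was 2 higher, ULK1 (1.24) and WIPI1 (1.60).

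In BFTC909 the return toward normoxia was partial for BNIP3L and unequal among the general genes. BNIP3 had 120 and 85.1 in the METTL4-si libraries against 353 and 346 in hypoxia (3.42-fold lower, adjusted p = 1.86e-04 by limma), and its values lay on either side of the normoxic 97.2 and 98.0. BNIP3L had 192 and 150 against 414 and 391 (2.35-fold lower, adjusted p = 3.40e-04), and these 2 libraries were still above normoxia (1.58-fold, adjusted p = 0.00236). PINK1, which hypoxia moved by less than the fold limit, fell to 43.2 and 43.1 (1.48-fold lower than in hypoxia, adjusted p = 9.62e-04). MAP1LC3B had 136 and 114 (1.34-fold lower, adjusted p = 0.0104), a call that ended without hypoxia replicate 1 (-0.42 on the log2 scale) or 2 (-0.43) and without METTL4-si replicate 2 (-0.30). FUNDC1 had 6.66 and 6.70 against 6.55 and 7.26, and SQSTM1 892 and 876 against 821 and 865, neither called.

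ULK1 and WIPI1 stayed above normoxia in BFTC909. ULK1 had 31.5 and 67.9 in the METTL4-si libraries, against 28.3 and 30.9 in hypoxia (log2 fold change 0.63, adjusted p = 0.145) and 14.5 and 15.9 in normoxia (3.28-fold, adjusted p = 0.00345 by limma). The higher value was in replicate 2, the library whose epithelial markers summed to 1122, and its part in the ULK1 value was not tested. Without it ULK1 was 1.01 above normoxia on the log2 scale and 0.09 above hypoxia. WIPI1 had 16.3 and 17.9, between hypoxia (21.6 and 20.4) and normoxia (11.5 and 11.5), and was 1.49-fold above normoxia (adjusted p = 0.00256). GABARAPL1 had 12.1 and 8.81, overlapping hypoxia. Against hypoxia 4 of 9 members were called lower and 0 higher (background 11.7% and 13.2%, 24.9% in all), and against normoxia 4 were called higher and 1, MAP1LC3B, lower (24.4% and 23.2%, 47.6% in all). Of those against normoxia, the GABARAPL1 call (0.52 on the log2 scale) ended without either normoxia library, either hypoxia library or METTL4-si replicate 1 (0.31), and the MAP1LC3B call (-0.46) without METTL4-si replicate 2 (-0.33). Without METTL4-si replicate 1, ULK1 was called higher than in hypoxia (1.17).

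Between the lines, the METTL4-si log2 fold change was higher in BFTC909 for BNIP3 (difference 1.98, adjusted p = 1.21e-04), BNIP3L (1.37, adjusted p = 3.58e-04), GABARAPL1 (1.31, adjusted p = 0.00285) and SQSTM1 (0.51, adjusted p = 0.0162) by the joint limma fit, where 14.4% of genes were called higher and 9.12% lower (23.5% in all). The SQSTM1 difference was lost without FADU hypoxia replicate 2 (0.46), FADU METTL4-si replicate 2 (0.36) or BFTC909 hypoxia replicate 1 (0.47). Without the 3 libraries ULK1 (1.20) and MAP1LC3B (0.66) were called higher and WIPI1 (-0.56) lower as well. The GABARAPL1 and SQSTM1 differences each join a fall in FADU to a log2 fold change of 0.07 in BFTC909. These tests share the hypoxia libraries with the test of the hypoxia response and are no independent evidence of it.

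In normoxic FADU with METTL4 overexpression the same 2 receptors were higher than in control cells, without any change of oxygen. These cells carry a stable transfection, and their own history and the overexpression cannot be told apart. BNIP3 was 15.0 and 10.3 in control cells and 102 and 105 in METTL4-OE cells (8.17-fold, log2 fold change 2.96, SE 0.122, adjusted p = 1.23e-08 by limma). BNIP3L was 44.6 and 45.7 against 109 and 115 (2.49-fold, log2 fold change 1.29, adjusted p = 8.35e-09). FUNDC1, at 10.6 and 8.84 against 9.44 and 9.65, had a log2 fold change of -0.02 with a 95% interval of -0.26 to 0.22. MAP1LC3B rose from 20.0 and 20.1 to 29.2 and 29.9 (1.47-fold, adjusted p = 9.60e-05). GABARAPL1 went the other way than under hypoxia, from 14.5 and 13.2 to 9.64 and 9.02 (1.49-fold lower, adjusted p = 0.00120). PINK1 (13.2 and 16.7 against 19.0 and 17.4) and SQSTM1 (182 and 203 against 221 and 205) did not overlap between the groups but were not called (adjusted p = 0.0596 and 0.0585). ULK1 had 27.9 and 26.0 against 25.4 and 25.9, and WIPI1 1.43 and 1.81 against 1.64 and 1.72. In METTL4-OE cells 3 of 9 members were called higher and 1 lower, where 8.12% and 10.6% of 15218 genes were (18.7% in all). The calls of these 4 members held with each library left out, where the lone library of its group is assumed to vary like the rest. Without control replicate 2 PINK1 was called higher as well (0.44 on the log2 scale).

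In the mutant clones PINK1 and 3 general genes were lower than in the control, and none of the 3 receptors was counted. With 1 control library there is no test, and a member was counted when both clones were at least 1.3-fold from the control on the log2(value + 1) scale. BNIP3 was 81.5 in clone 1 and 84.4 in clone 2, close to the control at 74.8. BNIP3L was 114 in clone 1, a log2 ratio of -0.45 to the control at 157, and 157 in clone 2. FUNDC1 had 5.31 against 5.16 and 4.14. PINK1 was lower in both clones, 11.7 and 10.2 against 25.2, with a mean log2 ratio of -1.13. ULK1 was lower at 28.8 and 28.0 against 51.9 (-0.85), WIPI1 at 1.01 and 1.08 against 3.67 (-1.19) and MAP1LC3B at 13.1 and 14.6 against 20.7 (-0.55). SQSTM1 had 102 and 91.8 against 126 and GABARAPL1 17.9 and 16.3 against 22.0, below the control in both clones but within 1.3-fold in 1 of them. So 4 of 9 members were lower in both clones and 0 higher, where 11.8% of 15719 genes were lower and 8.94% higher (20.7% in all), and 7 of 9 were below the control in both, as were 6398 of the 15719 genes. The members' median log2 ratio was -0.38, against -0.00402 for all genes.

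**Figure D4:**
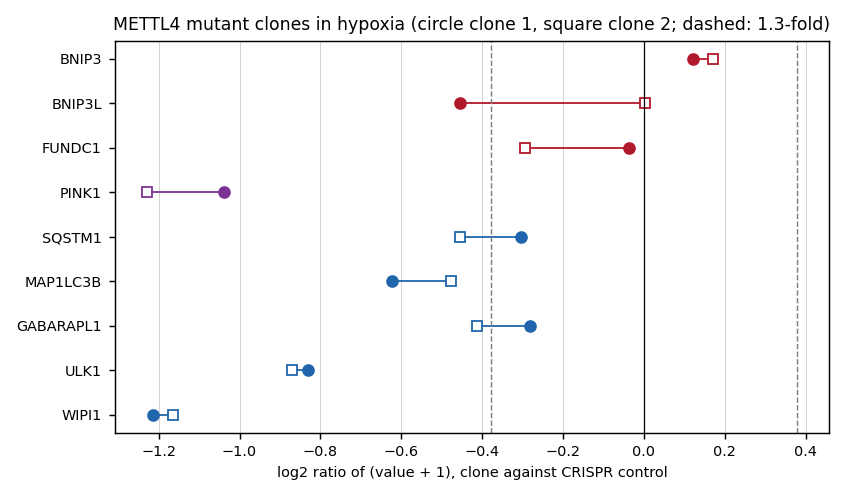
Log2 ratio of (value + 1) of each mutant clone (circle clone 1, square clone 2) to the single CRISPR control library in hypoxia, with dashed lines at 1.3-fold. PINK1, ULK1, WIPI1 and MAP1LC3B lie left of the dashed line in both clones, and BNIP3 lies right of 0.

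At 5 members the locus holds a gene on the opposite strand that was also measured, and the setting of the counting for strand is not given in the sources used here, so the reads of such pairs cannot be told apart. PINK1 overlaps PINK1-AS, with mean values of 9.14 in FADU and 6.19 in BFTC909. SQSTM1 overlaps MGAT4B (50.4 in FADU and 182 in BFTC909) and MRNIP, MAP1LC3B overlaps FBXO31 (18.3 and 24.7), and WIPI1 overlaps ARSG (3.48 and 1.39), whose mean in FADU is above that of WIPI1 in the Scramble-si groups. BNIP3L also overlaps PNMA2, at 20.9 in BFTC909 and 0.732 in FADU. BNIP3 has processed copies, of which BNIP3P5 in FADU (at most 0.584) and BNIP3P1 in BFTC909 (at most 1.15) were in the tables.

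The pathway around the members was described by lists drawn up with results of these data known, and they are read against the share of all genes called. That share, higher and lower, was 9.73% and 9.65% in FADU hypoxia, 17.9% and 18.3% in BFTC909 hypoxia, 12.5% and 15.3% in FADU METTL4-si, 13.2% and 11.7% in BFTC909 METTL4-si, 8.12% and 10.6% in METTL4-OE, and 8.94% and 11.8% in both mutant clones. Genes named beyond those that moved alike in both lines were chosen after their values were seen. Unless stated, list counts use all libraries, including those that stood out in a marker list, whose part in the counts was not tested. A list of 12 well-known HIF targets serves as a scale. In FADU hypoxia 11 of the 12 rose and 1, VEGFA, fell (log2 fold change -0.41, not called with median-centred libraries or by edgeR), and in BFTC909 all 12 rose, with medians of 1.98 and 1.49. The leading genes were CA9, a carbonic anhydrase (3.36 in FADU and 5.03 in BFTC909), NDRG1 (4.3 and 2.18), the prolyl hydroxylase EGLN3 (3.70 and 1.28) and the peptide hormone ADM (2.82 and 1.77). In the METTL4-si libraries 11 fell and VEGFA rose in FADU, and 12 fell in BFTC909. In METTL4-OE cells 10 of the 12 were higher (median 1.21). In the mutant clones 3 of the 12 (NDRG1, CA9 and BHLHE40) were lower in both clones and 0 higher.

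Other mitophagy genes followed no common direction. Of 8 other receptors 1 rose and 1 fell in FADU hypoxia, and 2 rose and 1 fell in BFTC909. PHB2, a prohibitin of the inner mitochondrial membrane that binds LC3, was lower in both lines (-0.52 in FADU and -0.45 in BFTC909, log2 fold change). Of the 13 tested genes of the PINK1-parkin branch, 1 rose and 1 fell in FADU and 0 rose and 2 fell in BFTC909. The 6 regulators that act on the FUNDC1 protein fell together in BFTC909 hypoxia, 6 of 6 with a median of -0.85, where 18.3% of all genes were called lower, and 4 of 6 with median-centred libraries. In FADU 2 of the 6 fell, SRC, a kinase that phosphorylates FUNDC1 (-0.48, against -1.28 in BFTC909), and BCL2L1, which encodes BCL-xL (-0.47 and -1.14). The difference between the lines was itself called lower for 5 of the 6 (background 12.8%).

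Among cargo adaptors, OPTN, an adaptor for ubiquitinated mitochondria, rose in both lines (1.45 in FADU and 0.47 in BFTC909, log2 fold change), with 5 of the 6 not called in either hypoxia comparison. In FADU METTL4-si 4 of 6 adaptors fell, OPTN by 1.01 on the log2 scale. Of 18 genes of the initiation complexes, 5 rose and 0 fell in FADU hypoxia, and 3 rose and 1 fell in BFTC909. PIK3C3, the lipid kinase VPS34, rose in both lines (0.66 and 0.49) and fell in both METTL4-si groups (-0.75 and -0.48). In FADU METTL4-si 8 of the 18 fell and 2 rose, where 15.3% of genes fell. Of the ATG8 family and its conjugation machinery, 0 of 13 were called in FADU hypoxia by limma (0 by an unadjusted p, 2 higher by edgeR, by DESeq2 and with median-centred libraries), and 2 rose and 3 fell of 14 in BFTC909. Of the upstream list of mTORC1 brakes and FOXO factors, DDIT4, an inhibitor of mTORC1, rose in both lines (1.85 and 1.76) and so did PRKAA2, a catalytic subunit of AMPK (1.45 and 1.32), while the other genes of this list that were tested in both lines were not called in the same direction in both. In METTL4-OE cells DDIT4 rose by 1.20 on the log2 scale.

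The lines differed in the stress and lysosome lists. Of 14 genes of the integrated stress response, an ATF4-centred programme, 11 rose and 0 fell in BFTC909 hypoxia (median 0.92, background 17.9% higher), and 2 rose and 5 fell in FADU (median -0.21). The difference between the lines was called higher for 13 of the 14 (background 11.0%), and the remaining gene was ATF3, which rose in FADU. VLDLR rose in both lines (1.5 in FADU and 2.37 in BFTC909). Of 25 lysosomal and TFEB-related genes, 15 rose and 1 fell in BFTC909 hypoxia (median 0.48), and 1 rose and 1 fell in FADU, with a difference called higher for 10 and lower for 2 (background 11.0% and 12.8%). Without normoxia replicate 1 and METTL4-si replicate 1, 5 lysosomal genes rose and 2 fell in FADU. Of 11 NRF2 targets, a list that includes genes of antioxidant defence, 0 rose and 6 fell in METTL4-OE cells (background 10.6% lower), and 4 were lower in both mutant clones (background 11.8%). The other lists of this paragraph moved there too. Of the 14 stress response genes 7 were lower and 2 higher in both clones, and of the 25 lysosomal genes 7 were lower and 1 higher. Of 12 genes of the machinery that fuses autophagosomes with lysosomes, 5 fell and 0 rose in FADU METTL4-si (15.3% lower and 12.5% higher of all genes), RAB7A by 0.69 on the log2 scale. In both mutant clones 1 of these 12 was lower and 1 higher.

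Transcripts of mitochondria themselves moved in FADU. Of the 13 mitochondrially encoded mRNAs, 10 fell and 0 rose in FADU hypoxia, with a median log2 fold change of -0.93 where 9.65% of genes were called lower. In bulk RNA, fewer mitochondria per cell and less RNA per mitochondrion cannot be told apart, just as fewer cells of a type and less RNA per cell cannot. In FADU METTL4-si 12 of the 13 rose against hypoxia and 0 fell (median 1.08). MT-ND6, the only one encoded on the light strand, fell in both lines (-2.81 in FADU and -1.10 in BFTC909), although its reads cannot be told from antisense ones without the strand setting. In BFTC909 hypoxia 1 rose and 1 fell of the 13 (median -0.01), and the difference between the lines was called higher for 10 of 13 (background 11.0%). In METTL4-OE 2 fell, MT-ATP6 and MT-ATP8 (-0.43 and -0.41). Of nuclear genes that follow mitochondrial mass, 0 of 16 rose and 1 fell in FADU hypoxia, and 0 of 17 rose and 6 fell in BFTC909. That list includes TOMM40, a pore of the outer membrane, which was lower in both lines (-0.69 and -1.0). In the METTL4-si libraries 8 of 16 in FADU and 4 of 17 in BFTC909 were lower than in hypoxia (background 15.3% and 11.7%), with 0 and 1 higher.

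**Figure D5:**
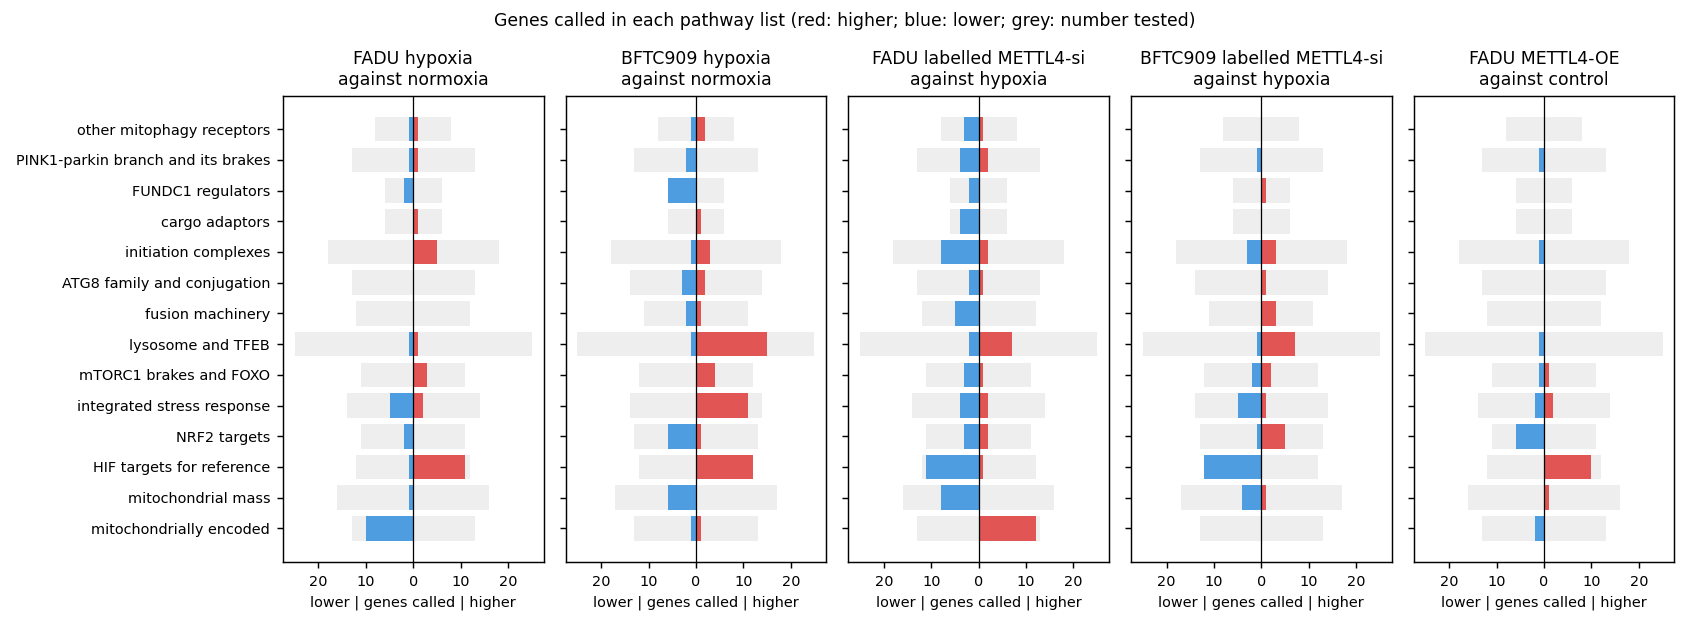
Number of genes called higher (red, to the right) and lower (blue, to the left) in each pathway list for 5 comparisons, with the number tested in grey on both sides. The HIF target rows are filled in every panel, and the mitochondrially encoded row is blue in FADU hypoxia and red in FADU METTL4-si but nearly empty in BFTC909.

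The genes with the profile nearest to each member were sought over the 16 libraries of the knockdown and overexpression tables, by the root mean square distance of log2(value + 1) centred within each table, among 9651 genes with a mean value of at least 5 in each. BNIP3 was nearest to NDRG1 (distance 0.325 on the log2 scale, where BNIP3's own SD was 1.39) and TCAF2 (0.393). BNIP3L was nearest to ADM and ENO2, both at 0.172 with an SD of 0.938 for BNIP3L. The general genes had other neighbours: GABARAPL1 was nearest to the adaptor OPTN (0.166, SD 0.420) and OSMR (0.179), MAP1LC3B to NCS1 (0.0894, SD 0.281) and CCNY (0.106), and ULK1 to CACNB3 (0.223) and KIFC2 (0.225) with an SD of 0.559. FUNDC1, which varied little (SD 0.188), was nearest to CHAF1B (0.0890) and LMNB1 (0.0893). For PINK1 (TP53I3 and COPG1) and SQSTM1 (PPP2R5C and RAB5A) the distances were 0.0644 to 0.105, and WIPI1, whose mean was under 5 in FADU, was nearest to SOX12 (0.169) and KCNQ1OT1 (0.171). The points of a profile share libraries and scaling, and the distances describe these libraries only.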

How the data were processed

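RNA of 21 samples was sequenced with a ribosomal-RNA-depleting stranded kit. Per the labels, the authors trimmed reads with Trim Galore, mapped them to hg19 with HISAT2, counted them with HTSeq and normalized with edgeR, and versions and the strand setting of the counting are not given in the sources used here. The deposited signal values are TMM-normalized CPM in 4 tables of 19505 (FADU), 17232 (BFTC909), 18316 (overexpression) and 15719 (mutants) genes. Outside the mutant table, 100.0% of values came out as whole reads (within 0.02 reads) once divided by the step of their library, and these reads went into the count tests. In the mutant table, lines that name no gene held 40.9% to 43.0% of each column, and they were left out.

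Of the value columns, 2 of the overexpression table matched no label and were not used, which left 19 libraries and 4 in the overexpression fit. The authors' 4 comparison tables, with fold changes and p-values, were not used. Gene IDs were matched to symbols, with 18887, 16721, 17763 and 15308 named. Log2(value + 1) was fitted for genes that reached 1 in 2 or more libraries by limma 3.58.1 (trended empirical Bayes, two-sided, Benjamini-Hochberg over all genes tested) on all libraries of a table, or on 12 libraries for differences between the lines. Calls needed an adjusted p under 0.05 and 1.3-fold. In the text folds are ratios of mean values.

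The members and gene lists were chosen with earlier results of these data known. Named were all members, METTL4, up to 4 genes of a list called alike in both lines, with the largest mean change, and the 2 nearest profiles of each member. Alternatives were pseudocounts of 0.1 and 5, no filter or a mean of 5, no trend, fits without the group not compared, centring of libraries on their median, edgeR 4.0.16 and DESeq2 1.42.0 on recovered reads, a replicate block, an unadjusted p, a 2-fold limit and leaving libraries out. The limma step was tested on simulated data with known changes. Differences between replicates exceeded sampling noise in every group (chi-square per degree of freedom 2.06 to 28.3), so no library was counted as a copy. Scripts ran under Python 3.11.15 (numpy 2.4.6, pandas 2.3.3, matplotlib 3.10.9) and R 4.3.3.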

Additional observations from a re-analysis of the deposited data

Results flagged for a closer look

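The tests of the difference between the lines called 4 members for the hypoxia response and 4 for the METTL4-si effect, in 1 limma fit of 12 libraries with the difference as BFTC909 minus FADU on the log2 scale. For the hypoxia response the difference was -1.69 for BNIP3 (adjusted p = 2.71e-04), -0.58 for BNIP3L (adjusted p = 0.0221), -0.40 for SQSTM1 (adjusted p = 0.0407) and -0.78 for GABARAPL1 (adjusted p = 0.0316). In each case the BFTC909 value was the lower, and for SQSTM1 the values were -0.19 in BFTC909 and 0.21 in FADU.

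For the METTL4-si effect the difference was 1.98 for BNIP3 (adjusted p = 1.21e-04), 1.37 for BNIP3L (adjusted p = 3.58e-04), 0.51 for SQSTM1 (adjusted p = 0.0162) and 1.31 for GABARAPL1 (adjusted p = 0.00285). Without the 3 libraries that stood out in a marker list these differences were 2.31, 1.57, 0.68 and 1.40. Those of the hypoxia response were then -1.65 for BNIP3, -0.50 for BNIP3L, -0.42 for SQSTM1 and -0.80 for GABARAPL1. METTL4 itself had a log2 fold change of -0.02 (95% interval -0.23 to 0.19) in FADU METTL4-si and of -0.36 (interval -0.66 to -0.05) in BFTC909 METTL4-si, and its part in the difference was not tested.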

How the results depend on the processing

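Of 1578 values of members under an alternative, 1412 kept direction and side of the threshold, 68 lost a call, 66 gained one, 28 turned direction and 4 untested values moved. A 2-fold limit gave 517 called genes in FADU hypoxia (3163 with 1.3-fold), 673 and 3 members lower in FADU METTL4-si (4534 and 5), 161 in FADU METTL4-si against normoxia (3531), 877 and 2 members higher in BFTC909 hypoxia (5382 and 4), 724 and 2 members lower in BFTC909 METTL4-si (3704 and 4), 1484 with 1 member higher and 0 lower against normoxia (7085, 4 and 1), 407 with 0 members lower in METTL4-OE (2846 and 1), 637 with 1 member lower for the line difference in hypoxia (3235 and 4) and 643 for that of METTL4-si (3193). A pseudocount of 5 gave 1622 genes in METTL4-OE and 1749 in the mutant clones (3254), and a mean of at least 5 gave 1880 in METTL4-OE, with fewer genes tested. Fits to the compared groups alone gave 5 members higher in FADU hypoxia and 2336 genes in FADU METTL4-si against normoxia, and DESeq2 gave 1 member higher (WIPI1) in FADU METTL4-si. In FADU METTL4-si against normoxia FUNDC1 became the 1 member lower with a pseudocount of 0.1, a mean of at least 5, median centring or an unadjusted p, and by an unadjusted p WIPI1 became the 1 member lower in the line difference of METTL4-si.

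Without the 3 libraries with transcripts of other cell types, 5 members were higher and 1 (FUNDC1) lower in FADU hypoxia, 3 lower in FADU METTL4-si against normoxia, 0 lower in BFTC909 METTL4-si against normoxia, 1 (WIPI1) higher in the line difference of hypoxia and 1 (WIPI1) lower in that of METTL4-si. The FADU side of that fit rests on 1 pair of libraries, so its calls lean on the spread shared across genes. Leaving out 1 library gave 706 to 4243 genes and 3 to 5 members higher in FADU hypoxia, 1976 to 5675 genes, 0 to 1 members higher and 3 to 7 lower in FADU METTL4-si, 758 to 4671 genes, 0 to 2 higher and 0 to 3 lower in FADU METTL4-si against normoxia, 3435 to 5951 genes in BFTC909 hypoxia, 1816 to 4978 genes and 0 to 1 members higher in BFTC909 METTL4-si, 0 to 1 lower in BFTC909 METTL4-si against normoxia, 2015 to 3770 genes, 0 to 1 higher and 1 to 5 lower in the line difference of hypoxia, and 1973 to 3680 genes and 0 to 1 members lower in that of METTL4-si.

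Members not called turned direction in some alternatives. Leaving out 1 library gave log2 fold changes of -0.025 to 0.34 for PINK1 and -0.51 to 0.034 for WIPI1 in FADU hypoxia, -1.11 to 0.39 for ULK1 in FADU METTL4-si, and, against normoxia, -0.42 to 0.066 for MAP1LC3B, -0.14 to 0.099 for GABARAPL1, -0.26 to 1.24 for ULK1 and -0.023 to 1.60 for WIPI1. In BFTC909 METTL4-si it gave -0.11 to 0.024 for FUNDC1 and -0.14 to 0.28 for GABARAPL1, and -0.20 to 0.29 for BNIP3 against normoxia. In METTL4-OE it gave -0.14 to 0.10 for FUNDC1 and -0.070 to 0.14 for WIPI1, in the line difference of hypoxia -0.15 to 0.22 for FUNDC1, -0.041 to 0.33 for PINK1 and -0.16 to 0.30 for ULK1, and in that of METTL4-si -0.31 to 0.059 for PINK1. Without the 3 libraries WIPI1 was at 0.034 in FADU hypoxia, GABARAPL1 at 0.12 and ULK1 at -0.025 in FADU METTL4-si against normoxia, and ULK1 at -0.16 in the line difference of hypoxia, where a pseudocount of 5 gave -0.0024. Median centring gave 0.040 for MAP1LC3B in BFTC909 hypoxia and, in BFTC909 METTL4-si, -0.029 for SQSTM1 and -0.029 for GABARAPL1. It also ended the call of GABARAPL1 in the line difference of hypoxia (-0.75). The cause of these changes was not tested.

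Replicate numbers were not taken to pair libraries: differences between replicates correlated at 0.648 between FADU normoxia and METTL4-si, whose replicates 1 are the libraries with breast markers, and at -0.0652 to 0.154 between the other groups. With the replicate block the line difference of METTL4-si had 1 member lower (WIPI1), BFTC909 hypoxia gained GABARAPL1, the line difference of hypoxia lost SQSTM1 and no other member's call changed. The comparison of RP11-390F4.3 overexpression was not run, since no column matched its labels. With 2 libraries a group and no depth for the mutant table, small changes of low genes such as WIPI1 were not detectable, and the 95% intervals of the FADU hypoxia response were -1.40 to 0.93 for WIPI1 and -0.19 to 1.89 for ULK1.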
